A study of Mus musculus with 31 samples.

Results

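The total RNA of S51 and S51A cells under bortezomib was compared gene by gene, with 4 libraries per line. Both are lines of mouse skin squamous cell carcinoma (SCC), S51 being competent and S51A null for the integrated stress response (ISR). Genes entered when they lay on an autosome and passed a filter on low counts, which left 11353 of the 24593 genes in the total RNA table, of which 23475 are autosomal. The filter asked for about 10 reads in at least as many libraries as the smallest group holds and for 15 reads in all. The question addressed was how the mRNAs of SCC cells that can and cannot phosphorylate eIF2α differ once the proteasome is blocked.

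The labels give both lines as HRasG12V:TgfbrIIfl/fl keratinocytes, with a floxed TGF-β receptor, whereas the study's list of materials gives both lines as TgfbrII D/D, that is with the receptor deleted. Either way the oncogenic Hras and the receptor alleles were shared by all groups. According to the study's methods, endogenous Eif2s1, which encodes eIF2α, was ablated by CRISPR in a clonal parental line and replaced by a lentiviral, myc-tagged transgene under the PGK promoter. The transgene was wild type in S51 and lacked the phosphorylated serine in S51A. The S51 bortezomib and S51A bortezomib groups received 100 nM bortezomib, and the S51 vehicle and S51A vehicle groups, used beside them, received DMSO. The labels give 4.5 h of treatment, and the study's own description a slightly shorter time. A pair of clones was used for each genotype, and the sources read here do not say which clone gave each library, so genotype and clone cannot be told apart in any difference below. The study's figure legends call its replicates independent and biological, its Results speak of technical replicates for the same experiment, and the labels only number them. Whether they are separate cultures is therefore not settled. The p-values measure the spread between these libraries and no wider one.

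In the ISR, 1 of several kinases phosphorylates eIF2α, which lowers translation initiation in general while it favours a few mRNAs, among them that of the transcription factor ATF4. ATF4, with partners of the C/EBP family, then raises genes for amino acid synthesis, amino acid uptake, tRNA charging and stress adaptation. Bortezomib blocks the proteasome, and unfolded or undegraded proteins then raise heat shock, NRF2 and ER stress genes as well. In stratified epithelia, keratinocytes that leave the basal layer switch on a separate program of cornified envelope and protease genes, and squamous tumours keep parts of it.

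Reads on genes ran from 20870661 to 22290040 in the S51 bortezomib libraries and from 18758668 to 22075557 in the S51A bortezomib libraries, ranges that overlap between the lines. A note on the series says that the labels of some samples, S51 bortezomib and S51A vehicle among them, were exchanged while their data stayed, and libraries are named here by the labels as they now stand. Hspa1b, a heat shock gene known to rise when the proteasome is blocked, had 881 to 1078 and 842 to 1103 CPM in the S51 and S51A libraries labelled bortezomib and 33.8 to 38.9 and 42.4 to 50.2 CPM in those labelled vehicle. In a principal component analysis the first component (71.0% of the variance) separated the lines and the second (21.1%) the treatments. Levels are given as CPM, the reads of a gene scaled to a common total after TMM scaling of library sizes, where a floor of 3 counts in a library equals 0.126 to 0.164 CPM. All intervals and floors cover counting error only. Between replicates of a bortezomib group the log2 CPM correlated at 0.997 to 0.998. All 12 squamous keratinocyte markers, such as Krt14 and Trp63, passed the filter, with summed levels of 17083 to 19613 CPM in S51 and 19549 to 21184 CPM in S51A. Markers of other cells were far lower in sum. The 8 fibroblast markers summed to at most 6.20 CPM in a library, with Col1a2, Col3a1, Dcn, Lum and Thy1 at 0 in both lines, and the 7 endothelial and 7 melanocyte markers summed to at most 4.13 and 3.33 CPM. The 10 immune cell markers summed to 9.12 to 11.3 CPM in S51 and 17.3 to 19.05 CPM in S51A, with Cd3e and Lyz2 at 0 in both lines. Of the 12 squamous markers, Sfn and Cd44 were called lower in S51 (16.7%, against 5.51% of all genes). In the other lists, Csf1r, Cd14 and the endothelial receptor Tie1 were called lower in S51 and Mitf, a melanocyte factor, higher. In bulk RNA, fewer cells of a type and less RNA per cell cannot be told apart.

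Under bortezomib 936 genes, 8.24% of those tested, differed between the lines by more than 2-fold at an adjusted p below 0.05, and are called different here. Of these, 310 were higher in S51 (2.73%) and 626 were lower (5.51%). Differences are given as log2 of S51 over S51A with the standard error (SE) of edgeR's quasi-likelihood fit, and adjusted p-values are those of its test with Benjamini-Hochberg adjustment over all 11708 genes tested, the X and Y chromosomes included. The adjusted p alone passed for 3677 genes that were higher (32.4%) and 3786 that were lower (33.3%), with a median size of 0.39 on the log2 scale, so most of what the test detected was smaller than 2-fold. The 4 libraries of one line lay wholly beyond the 4 of the other for 6463 genes (56.9%), among them 888 of the 936 called. Called genes were mostly of low abundance. Their median level over the 8 libraries was 3.18 CPM among those higher in S51 and 2.69 CPM among those lower, against 27.3 CPM over all genes tested. Protein-coding genes made up 292 of the 310 and 595 of the 626, and lncRNA genes 13 and 26. Differences above 4-fold numbered 81 and 164.

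Most of these differences were also present without the drug. Under vehicle 884 genes were called (7.79%), 270 higher (2.38%) and 614 lower (5.41%) in S51. The 668 genes called the same way under both treatments were 71.4% of the calls under bortezomib and 75.6% of those under vehicle. Of the 936 called under bortezomib, 922 had the same sign under vehicle. The treatments share no libraries, and across the 11353 genes, which are not independent replicates, the line differences correlated at r = 0.89 and rho = 0.81. Whether the difference itself changed with treatment was tested as an interaction, and 55 genes passed it by more than 2-fold (0.484%), 36 upward under bortezomib (0.317%) and 19 downward (0.167%). The 2-fold was applied to the estimate. When the interaction was tested against a fold of 2 with edgeR's glmTreat, 0 genes passed in each direction, with 24 upward and 8 downward at an unadjusted p below 0.05, and DESeq2 called 24 and 10. The plot of the line difference under bortezomib against that under vehicle shows the diagonal along which most genes lie.

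**Figure D1:**
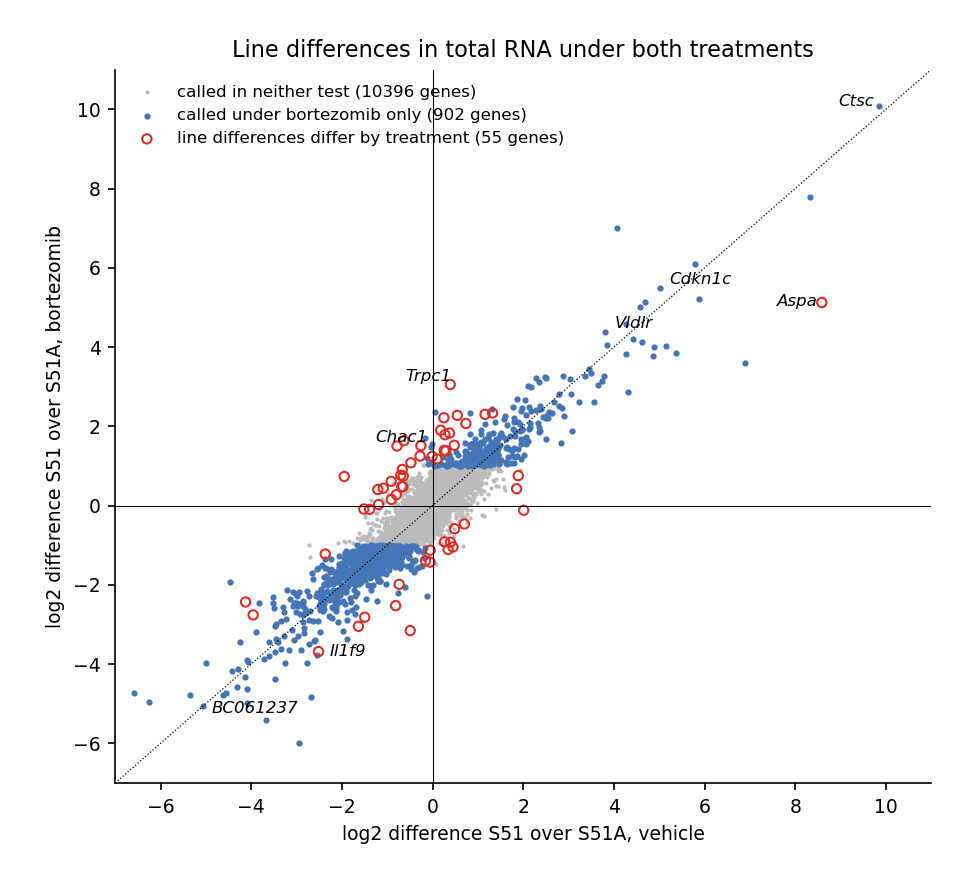
Log2 difference of S51 over S51A under bortezomib (y axis) against the same under vehicle (x axis) for 11353 autosomal genes, each a point. Blue points are genes called under bortezomib, red circles the 55 genes whose line difference itself differed by treatment, and the dotted line marks equal differences. Most called genes lie along the diagonal, and Chac1 and Trpc1 lie above it.

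Eif2s1 itself, ablated at its own locus and carried as a transgene by both lines (chr12:78862072-78887010 for the endogenous gene), did not pass the test between them under bortezomib. It measured 287, 282, 291 and 286 CPM in S51 and 279, 299, 291 and 293 CPM in S51A, and these ranges overlap. The difference was -0.02 ± 0.031 (log2, SE; adjusted p = 0.59 by edgeR). Reads from the transgene and from the edited locus are not separated in the table, so that this level does not check the genotype.

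The genes that the ISR is known to raise were higher in S51 as a group. Of 20 listed ISR transcription factors and effectors, 18 were tested (Fgf21 and Stc2 were too low), 9 were called higher and none lower, against 2.73% and 5.51% of all genes. All 18 lay above 0, with a median of 1.01 on the log2 scale under bortezomib and 0.60 under vehicle, where the medians of all genes were -0.01 and -0.0016. The 9 called were Vldlr, Trib3, Nupr1, Chac1, Herpud1, Gdf15, Eif4ebp1, Ddit3 and Atf5.

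Trib3 (chr2:152337425-152344060), a pseudokinase induced by ATF4 and CHOP, had 92.96, 104, 97.4 and 117 CPM in S51 and 17.5, 20.97, 18.7 and 25.97 CPM in S51A under bortezomib. Every S51 library was more than 3 times as high as any S51A library, and the difference was 2.30 ± 0.114 (adjusted p = 1.18e-14 by edgeR). Under vehicle Trib3 had 35.95 to 55.01 CPM in S51 and 16.7 to 23.4 CPM in S51A, so that the S51A ranges overlapped between the treatments and the S51 ranges did not. Ddit3 (chr10:127290793-127296291), which encodes the pro-apoptotic factor CHOP, had 31.9, 39.2, 35.4 and 45.99 CPM in S51 and 13.1, 18.1, 15.01 and 21.1 CPM in S51A, a difference of 1.17 ± 0.116. The lines did not overlap under bortezomib, whereas under vehicle both lay between 10.2 and 13.7 CPM. Chac1 (chr2:119351242-119354326), a glutathione-degrading enzyme, had 36.4, 39.3, 47.4 and 43.3 CPM in S51 and 9.63, 16.7, 14.7 and 17.4 CPM in S51A, and under vehicle 27.1, 21.7, 16.4 and 17.1 CPM and 18.4, 23.3, 29.99 and 26.5 CPM. Its lines overlapped under vehicle and stood apart under bortezomib, by 1.51 ± 0.155. Nupr1 (chr7:126623246-126625470), a small chromatin-associated stress factor, had 30.1, 43.8, 38.4 and 39.8 CPM in S51 and 9.18, 14.9, 10.1 and 12.7 CPM in S51A, a difference of 1.69 ± 0.132.

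Vldlr (chr19:27216480-27254231), a lipoprotein receptor raised by ATF4, showed the widest difference of the list at 4.39 ± 0.123, from 23.5, 25.3, 26.1 and 28.4 CPM in S51 to 1.09, 1.27, 1.20 and 1.35 CPM in S51A, and by 3.81 under vehicle. Herpud1, which acts in ER-associated degradation, had 126, 126, 126 and 166 CPM in S51 and 32.99, 51.8, 36.4 and 72.5 CPM in S51A, so that replicate 4 was high in each line and the lines still did not overlap (1.48 ± 0.181). Eif4ebp1, the translation repressor 4E-BP1, differed by 1.37 ± 0.038, Atf5 by 1.06 ± 0.057 and Gdf15, a secreted stress cytokine, by 1.42 ± 0.224. Atf4 (chr15:80255184-80257545) itself was higher by less than 2-fold, with 743, 719, 729.6 and 725 CPM in S51 and 479, 557, 509.6 and 541 CPM in S51A (0.48 ± 0.043, adjusted p = 4.40e-10 by edgeR), and by 0.58 under vehicle. The smallest differences of the list were those of Ppp1r15b, a constitutive eIF2α phosphatase subunit (0.13 ± 0.042), of Cebpg, a partner of ATF4 (0.24 ± 0.058), and of Ppp1r15a, the inducible phosphatase subunit GADD34 (0.33 ± 0.074).

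Short stretches of the promoters of these genes are shown because ATF4 with a C/EBP partner is known to bind an element of the form TGATGNAA. The motif was searched on both strands (as TTNCATCA on the other) in the 250 bases before the start site, in RefSeq promoters of GRCm38.p6, the build of the files. It was found in 12 of the 48 tested genes of the ISR, amino acid synthesis, transport and tRNA synthetase lists that have a promoter in the table (25%), in 209 of 9117 tested genes with one (2.29%) and in 1134 of all 32851 promoters (3.45%). In other lists it was found in 2 of 17 epidermal differentiation genes with a promoter (11.8%), in 1 of 27 proteasome subunit genes (3.70%) and in none of 24 heat shock and 19 ER chaperone genes. Of called genes, 13 of 246 that were higher in S51 (5.28%) and 12 of 470 that were lower (2.55%) held it. Of those 13, 7 were genes of the ISR, amino acid synthesis, transport and tRNA synthetase lists already counted. A match describes the letters and shows no binding. The windows of 7 of the 12 genes are printed, and run 5′ to 3′ on the strand of the gene and capitals mark the motif.
Vldlr: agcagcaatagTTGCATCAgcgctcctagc (chr19:27216809-27216838, plus strand)
Nupr1: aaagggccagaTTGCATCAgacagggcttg (chr7:126625562-126625591, minus strand)
Chac1: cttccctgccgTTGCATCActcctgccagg (chr2:119351038-119351067, plus strand)
Herpud1: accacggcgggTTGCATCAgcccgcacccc (chr8:94386306-94386335, plus strand)
Atf3: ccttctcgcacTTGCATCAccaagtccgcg (chr1:191183425-191183454, minus strand)
Asns: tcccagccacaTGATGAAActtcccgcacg (chr6:7693214-7693243, minus strand)
Slc7a11: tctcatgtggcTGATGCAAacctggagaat (chr3:50443661-50443690, minus strand)
Slc7a11: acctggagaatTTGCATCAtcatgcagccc (chr3:50443642-50443671, minus strand)
Slc7a11 held the motif on each strand within 30 bases. The start sites used for Vldlr and Slc7a11 lie inside the spans given for these genes, and not at their outer ends. Of the 12 genes of the lists that held it, 7 were called higher in S51 and the other 5 (Atf3, Tars, Pycr1, Got1 and Gars) lay between 0.81 and 0.91 on the log2 scale.

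Genes of amino acid synthesis were also mostly higher in S51. All 17 listed were tested, with a median of 0.82 under bortezomib and 0.54 under vehicle. Of these, 5 were called higher (Aldh18a1, Mthfd2, Gpt2, Psat1 and Asns) and Cbs was called lower. These shares were 29.4% and 5.88%, against 2.73% and 5.51% of all genes. Psat1 (chr19:15905123-15925059), which makes serine, was the most abundant of all genes called higher, with 1579.5, 1683, 1662 and 1688 CPM in S51 and 619, 665, 618 and 674 CPM in S51A (1.36 ± 0.034, adjusted p = 1.98e-20 by edgeR). The S51A libraries lay above those of S51A vehicle (574 to 598 CPM), and the line difference under vehicle was 1.16. Asns (chr6:7675165-7693209), asparagine synthetase, had 720.4, 773, 765 and 767 CPM in S51 and 321, 338, 306 and 324 CPM in S51A, a difference of 1.23 ± 0.035, and Aldh18a1, which starts proline synthesis, had 184 to 196 CPM and 54.6 to 59.6 CPM (1.71 ± 0.039). Mthfd2, of mitochondrial folate metabolism, differed by 1.45 ± 0.069 and Gpt2, an alanine transaminase, by 1.38 ± 0.085. Shmt2 at 0.99 ± 0.032 lay just under 2-fold. Cbs, which makes cystathionine, went the other way (-1.20 ± 0.257) at levels near 1 CPM, with 0.302, 0.385, 0.486 and 0.716 CPM in S51 and 1.09, 1.18, 1.09 and 1.01 CPM in S51A.

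Of 11 amino acid transporters 9 were tested (Slc7a3 is X-linked and Slc43a1 too low), and 5 were called higher, with a median of 1.02 under bortezomib and 0.70 under vehicle. The share called higher was 55.6%, against 2.73% of all genes, and none was called lower, where 5.51% of all genes were. Slc7a11 (chr3:50364936-50499087), the cystine importer xCT, had 584, 521, 560.1 and 535 CPM in S51 and 318, 273, 271 and 221 CPM in S51A, a difference of 1.02 ± 0.081 that was just past 2-fold and fell below it when scaled by total counts without TMM factors (0.97), without S51 bortezomib replicate 1 (0.995) and without S51A bortezomib replicate 4 (0.94). It lies at the end of a stretch of chromosome 3 over which neighbouring genes were higher in S51 under both treatments, whose part in its difference was not tested. Slc7a5 (chr8:121881146-121907686), the leucine carrier LAT1, had 483, 463, 459 and 440.3 CPM in S51 and 219, 181, 193 and 174 CPM in S51A (1.27 ± 0.052). Slc3a2, its heavy chain, was at 0.97 ± 0.043. The glycine carrier Slc6a9 and the neutral amino acid carriers Slc1a4 and Slc1a5 differed by 1.47 ± 0.095, 1.47 ± 0.075 and 1.18 ± 0.062. Slc7a1, the cationic carrier CAT1, measured -0.04 and Slc38a2, the carrier SNAT2, 0.15. All 20 cytosolic tRNA synthetases were tested, and 19 were past the adjusted p upward, where 32.4% of all genes were. Only Iars (1.13 ± 0.047) and Aars (1.06 ± 0.034) exceeded 2-fold (10%), and the median was 0.74 under bortezomib and 0.42 under vehicle. Aars had 479, 505, 520.5 and 511 CPM in S51 and 238, 248, 229 and 249.7 CPM in S51A. Hars was the exception, at -0.12 ± 0.030.

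The 4 lists above held 63 tested genes, counting each once. Of these, 21 were called higher (33.3%, against 2.73% of all genes) and 1, Cbs, lower (1.59%, against 5.51%). Their line difference was larger under bortezomib than under vehicle for 40 of the 63 at an adjusted p below 0.05 of the interaction, against 11.9% of all genes, and smaller for 1 (Atf5), against 9.75%. Their median was 0.87 under bortezomib and 0.54 under vehicle. Of the genes of these lists, 4 passed the interaction by more than 2-fold, Chac1 (1.77 ± 0.219), Atf3 (1.58 ± 0.266), Trib3 (1.14 ± 0.165) and Ddit3 (1.07 ± 0.178). Atf3 (chr1:191170296-191183333), a stress-induced repressor, had 4.23, 5.40, 4.13 and 6.60 CPM in S51 and 2.33, 2.78, 3.28 and 2.45 CPM in S51A under bortezomib and the reverse order under vehicle, at 2.57, 1.81, 2.07 and 1.55 CPM and 4.24, 2.72, 2.96 and 2.67 CPM. It was higher in S51 by 0.91 ± 0.178 with the drug and lower without it (-0.67).

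**Figure D2:**
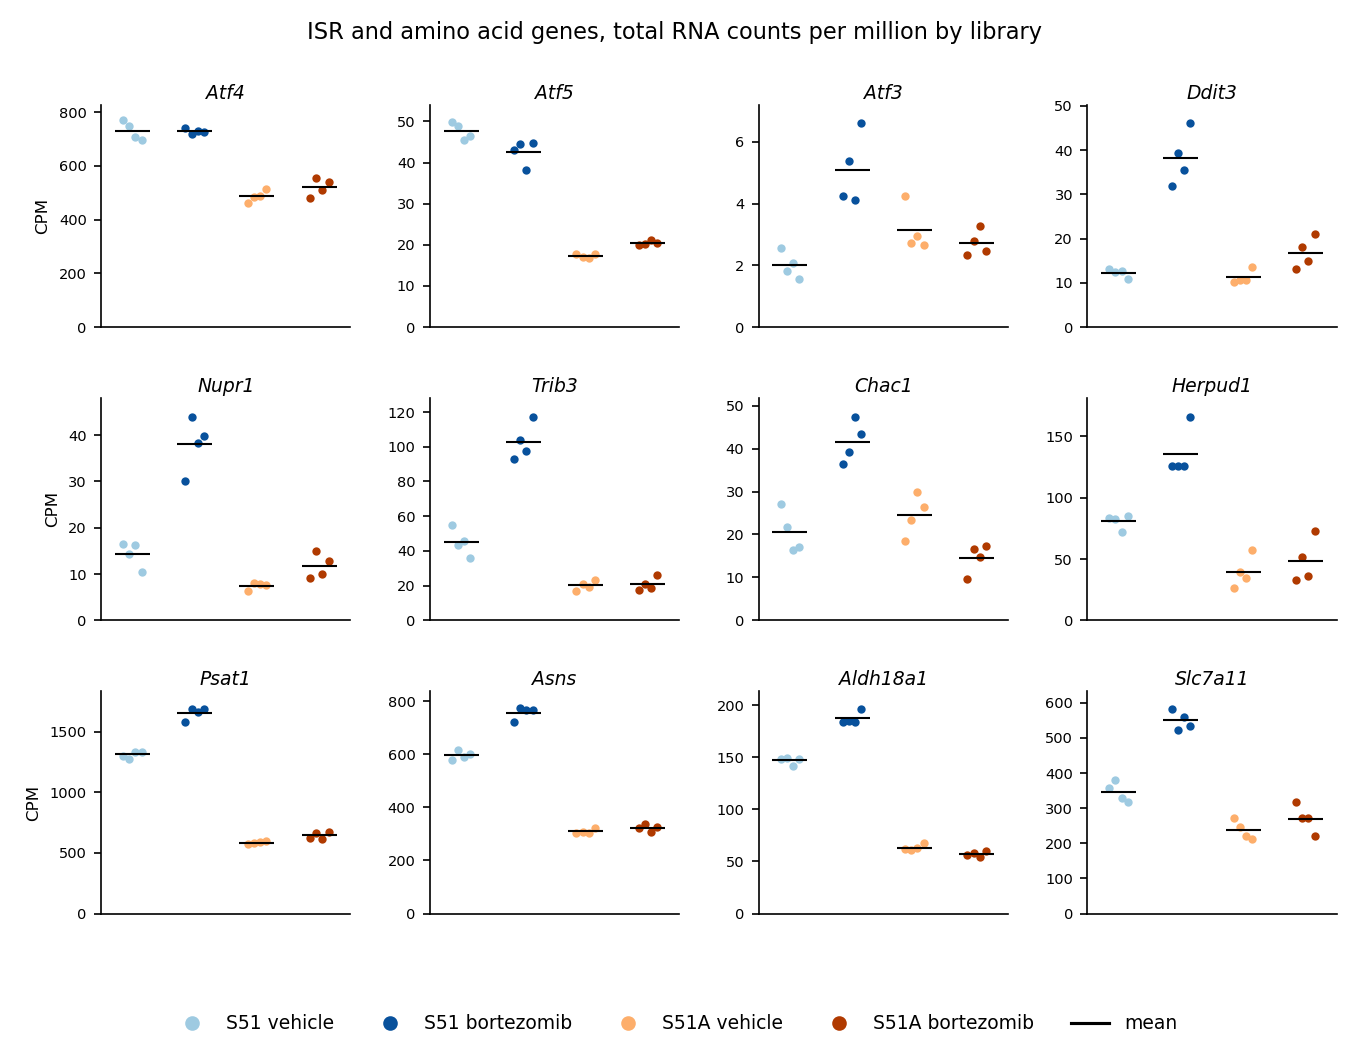
Total RNA level in CPM (y axes, linear from 0) of 12 ISR and amino acid genes in each of the 16 libraries, with 4 points and a mean line for each group of line and treatment. Psat1 lies between 1579.5 and 1688 CPM in S51 bortezomib and between 618 and 674 CPM in S51A bortezomib, and for Ddit3 and Chac1 only the S51 bortezomib libraries stand above the other 3 groups.

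Upstream of ATF4, none of the 13 eIF2α kinase and eIF2 subunit genes was called, with a median of -0.02. Their range ran from Eif2ak3, the kinase PERK (-0.33 ± 0.072), to Impact, a regulator of the kinase GCN2 (0.84 ± 0.073). Impact had 29.9, 29.5, 26.3 and 26.9 CPM in S51 and 16.7, 14.8, 15.2 and 16.4 CPM in S51A, apart but within 2-fold.

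Lists of other responses to a blocked proteasome are read against 2.73% of all genes called higher and 5.51% called lower. None of 33 proteasome subunit genes was called, with a median of 0.03 and a range from -0.85 (Psmd5) to 0.51 (Psma4). Of 29 heat shock proteins and cochaperones, Cryab, a small heat shock protein, was called lower (3.45%), and the median was -0.01. Cryab had 35.5, 55.4, 42.1 and 41.5 CPM in S51 and 117, 176, 122 and 162 CPM in S51A (-1.73 ± 0.116), against 17.6 to 21.8 CPM and 34.4 to 43.04 CPM under vehicle. The highest of that list was the abundant Hspa8 at 0.57 ± 0.092. No gene of the 22 ER chaperone and unfolded protein response genes was called, but 17 were past the adjusted p downward (33.3% of all genes were), with a median of -0.28 under bortezomib and -0.15 under vehicle. They ran from Creld2 (-0.61) to Derl3 (0.36). Of 24 NRF2 targets, Osgin1 was called higher (1.19 ± 0.104) and Nqo1, a quinone reductase, lower (-1.45 ± 0.099), 4.17% each, with a median of 0.06. Of 12 tested autophagy receptors and ATG8 genes, Optn (-1.78 ± 0.283) and Map1lc3a (-1.08 ± 0.103) were called lower (16.7%), and Sqstm1, which encodes p62, measured 0.30 ± 0.058. None of 4 tested metallothionein and zinc export genes was called, with values from -0.38 (Mtf1) to 0.36 (Mt2).

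**Figure D3:**
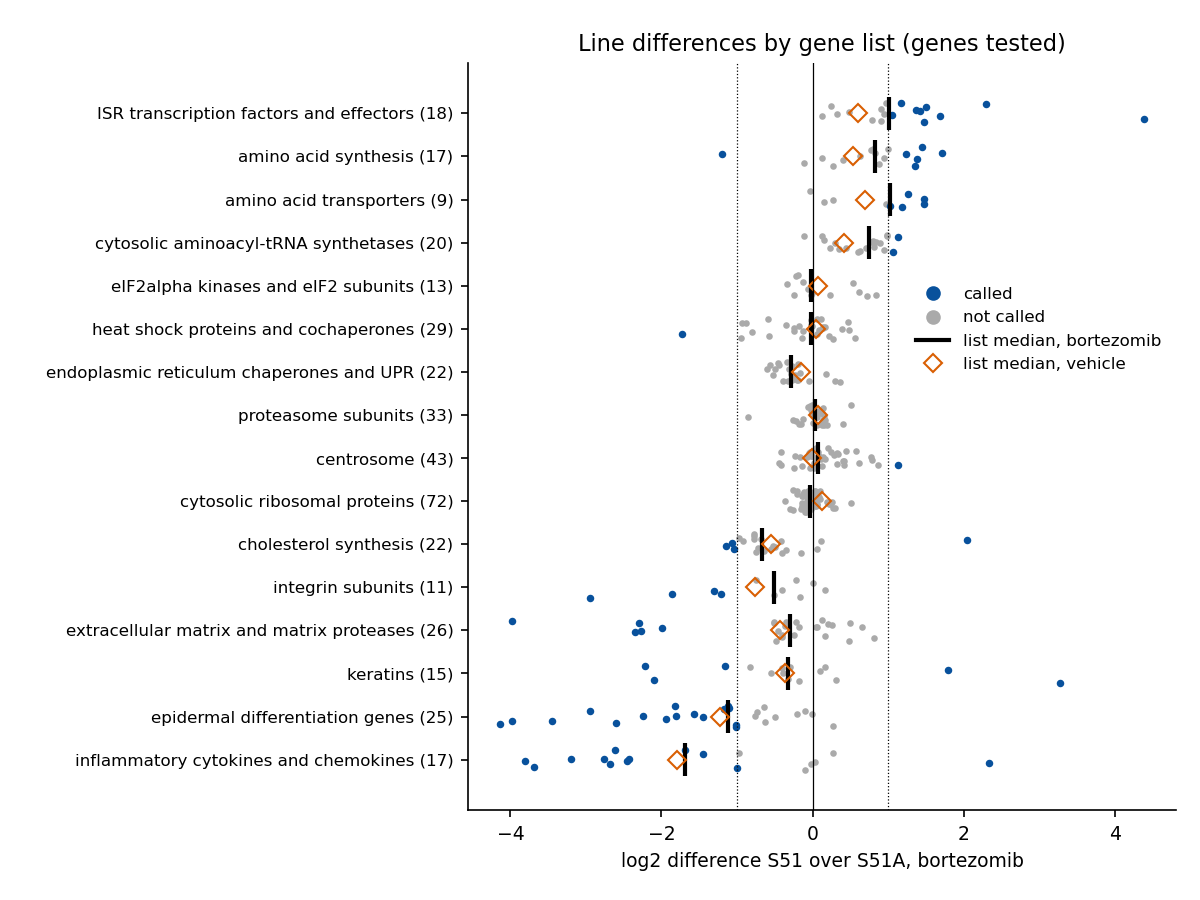
Log2 difference of S51 over S51A under bortezomib (x axis) for the tested genes of 16 lists (rows, number tested in brackets), blue where called. Black bars are list medians under bortezomib, open diamonds those under vehicle, and dotted lines mark 2-fold. The 3 lists of ISR effectors, amino acid synthesis and transporters have medians between 0.82 and 1.02, and epidermal differentiation genes and cytokines have medians of -1.11 and -1.69.

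Genes with the widest differences upward were, in order, Ctsc, Hdgfl3, Cdkn1c, Scn9a, Vldlr, Rgma, Mecom, Pdzrn3, Krt20, Vim, Slc35g1 and Serpine2, among called genes whose libraries stood apart and which reached 5 CPM in the higher line. Ctsc (chr7:88278024-88315861), the lysosomal protease cathepsin C, had 6.20, 6.50, 7.29 and 6.09 CPM in S51 and no read in any S51A library. With a floor of 3 counts over the 4 S51A libraries it was at least 175-fold higher, and at least 158-fold higher under vehicle. Cdkn1c (chr7:143458339-143461059), the CDK inhibitor p57, had 13.5, 11.5, 12.1 and 12.99 CPM in S51 and 0.397, 0.33, 0.109 and 0.24 CPM in S51A (5.49 ± 0.196). Hdgfl3 had 20.6 CPM on average against 0.304 CPM (6.08 ± 0.222). All 12 were also called higher under vehicle, with differences from 2.36 (Slc35g1) to 5.79 (Hdgfl3) beside Ctsc. Serpine2, a secreted protease inhibitor, had 47.5, 48.1, 43.9 and 48.6 CPM in S51 and 6.70, 5.94, 6.06 and 7.74 CPM in S51A (2.83 ± 0.075).

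Mesenchymal and simple-epithelial filament genes were among them. Vim (chr2:13574311-13582826), which encodes vimentin, had 37.3, 41.8, 35.1 and 34.5 CPM in S51 and 4.66, 4.10, 3.66 and 3.27 CPM in S51A (3.24 ± 0.101). With Twist2 (3.15 ± 0.259) it was called higher, alone among the 13 tested epithelial to mesenchymal transition genes, whose median was 0.21. That share was 15.4%, against 2.73% of all genes, and none of the list was called lower, where 5.51% of all genes were. Snai1, Twist1, Zeb1 and Prrx1 were too low to test, and Cdh2 was at the low end (-0.69 ± 0.047). Krt20 (chr11:99428385-99438153), a keratin of simple epithelia and Merkel cells, had 101, 107, 115 and 119 CPM in S51 and 10.9, 12.1, 12.99 and 9.86 CPM in S51A (3.27 ± 0.073), a separation without overlap. Of 15 tested keratins, Krt20 and Krt15 were called higher and Krt6b (-2.21 ± 0.246), Krt17 (-2.10 ± 0.227) and Krt80 (-1.16 ± 0.092) lower. These shares were 13.3% and 20%, against 2.73% and 5.51% of all genes. Krt15, a basal and stem cell keratin, varied within the lines, at 19.7, 35.3, 36.9 and 35.3 CPM in S51 and 5.95, 15.9, 7.15 and 7.26 CPM in S51A. Krt14, the main basal keratin, measured 6793 ± 548 CPM in S51 and 6048 ± 289 CPM in S51A (SD, n = 4), a difference of 0.17 ± 0.043.

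Epidermal differentiation genes were lower in S51. Of 35 listed 25 were tested, 16 were called lower and none higher (5.51% and 2.73% of all genes), and 24 of 25 lay below 0, with a median of -1.11 under bortezomib and -1.22 under vehicle. The other 10, among them Lor, did not pass the filter or are not analysed here. Ivl (chr3:92570899-92573790), which encodes involucrin of the cornified envelope, had 9.33, 11.4, 11.3 and 9.62 CPM in S51 and 38.2, 43.4, 40.5 and 37.6 CPM in S51A (-1.94 ± 0.082, adjusted p = 6.04e-16 by edgeR). In each line its level under vehicle was higher, at 24.1 to 24.9 CPM and 71.6 to 91.3 CPM. Sprr1a (chr3:92483954-92485881), another envelope precursor, had 2.77, 3.32, 3.60 and 2.76 CPM in S51 and 18.804, 21.5, 18.6 and 16.8 CPM in S51A (-2.60 ± 0.114). Klk10, a kallikrein protease, had 28.6, 27.3, 31.1 and 30.1 CPM in S51 and 87.7, 85.2, 91.2 and 82.9 CPM in S51A (-1.57 ± 0.052), and the protease inhibitor Spink5 had 113 to 150.3 CPM and 245 to 318 CPM (-1.11 ± 0.074). The retroviral-like skin protease Asprv1 differed by -3.45 ± 0.205. Among transcription factors of this program, Grhl3 (-1.81 ± 0.162) and Grhl1 (-1.01 ± 0.079) were called lower too. Ovol1 and Zfp750, whose values are given in the last section, were not called under bortezomib. Cnfn, at the low end, rested on 2 reads in S51 and 43 in S51A, a ratio of 21.6 in favour of S51A with a 95% counting interval from 5.62 to 184. Ppl was the 1 member above 0 (0.27 ± 0.046).

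Inflammatory cytokine and chemokine genes had the lowest median of all lists, at -1.69 under bortezomib and -1.79 under vehicle. Of 35 listed 17 were tested, 11 were called lower (64.7%, against 5.51% of all genes) and Cxcl14 was called higher (5.88%, against 2.73%). Il1f9 (chr2:24186476-24193567), which encodes interleukin-36γ, had 2.37, 1.69, 2.72 and 1.69 CPM in S51 and 27.4, 26.9, 27.7 and 27.2 CPM in S51A (-3.68 ± 0.141). Under vehicle it had 0.921 to 1.62 CPM and 4.99 to 8.49 CPM, and the line difference was wider under bortezomib by -1.17 ± 0.264. Cxcl5 (chr5:90759298-90761625), a neutrophil chemokine, had 5.39, 4.67, 5.01 and 3.33 CPM in S51 and 51.1, 43.3, 42.9 and 31.7 CPM in S51A (-3.19 ± 0.178). Il1a, interleukin-1α, had 1.51, 1.69, 1.65 and 1.79 CPM in S51 and 14.04, 13.1, 9.50 and 8.37 CPM in S51A (-2.76 ± 0.183), a narrower gap than under vehicle (-3.96). Ptgs2, the prostaglandin synthase COX-2, was the most abundant of the list, with 221, 173, 191 and 179.9 CPM in S51 and 424, 394, 344 and 376 CPM in S51A (-1.01 ± 0.067). It was called at just past 2-fold, and fell below 2-fold with RLE factors and with DESeq2. S100a9, S100a8, Il18, Tslp, Csf3, Il1rn and Cxcl3 were called lower, from -3.80 to -1.45, and Cxcl14 (2.34 ± 0.270) had 1.70 to 2.30 CPM in S51 and 0.236 to 0.721 CPM in S51A. The myeloid receptors Csf1r (-2.61 ± 0.267) and Cd14 (-1.03 ± 0.120) were called lower as well, while Cd3e and Lyz2 were at 0. The summed immune markers were at 9.12 to 11.3 CPM in S51 and 17.3 to 19.05 CPM in S51A, and their part in the cytokine result was not tested.

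Of 15 tested NF-κB factors and targets 3 were called lower (20%, against 5.51% of all genes), Map3k8, Relb and Icam1. The median of the list was -0.50 under bortezomib and -0.80 under vehicle. Icam1 was below 2-fold with RLE factors, with DESeq2, without a filter and without any of 8 libraries. Its smallest difference was -0.90, without S51 bortezomib replicate 1. Map3k8, the kinase TPL2, had 0.504, 0.0964, 0.632 and 0.256 CPM in S51 and 6.05, 6.50, 7.64 and 7.12 CPM in S51A (-4.18 ± 0.240). Nfkbia, the inhibitor IκBα, lay at the high end (0.28 ± 0.070), with 27.7, 27.4, 26.9 and 26.1 CPM in S51 and 24.7, 23.4, 20.96 and 20.2 CPM in S51A. Under vehicle it was lower in S51 (-0.80), and the interaction was 1.07 ± 0.095 (adjusted p = 5.70e-08 by edgeR). Of 20 tested interferon-stimulated genes, Oas1a (-1.34 ± 0.402) and Stat2 (-1.10 ± 0.160) were called lower (10%). Of 13 immunoproteasome and antigen presentation genes, Psmb8 (-2.33 ± 0.259) and H2-K1 (-1.05 ± 0.079) were called lower (15.4%). The medians of these lists were -0.19 and -0.42. H2-K1 has close relatives between which uniquely mapped reads are uncertain.

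**Figure D4:**
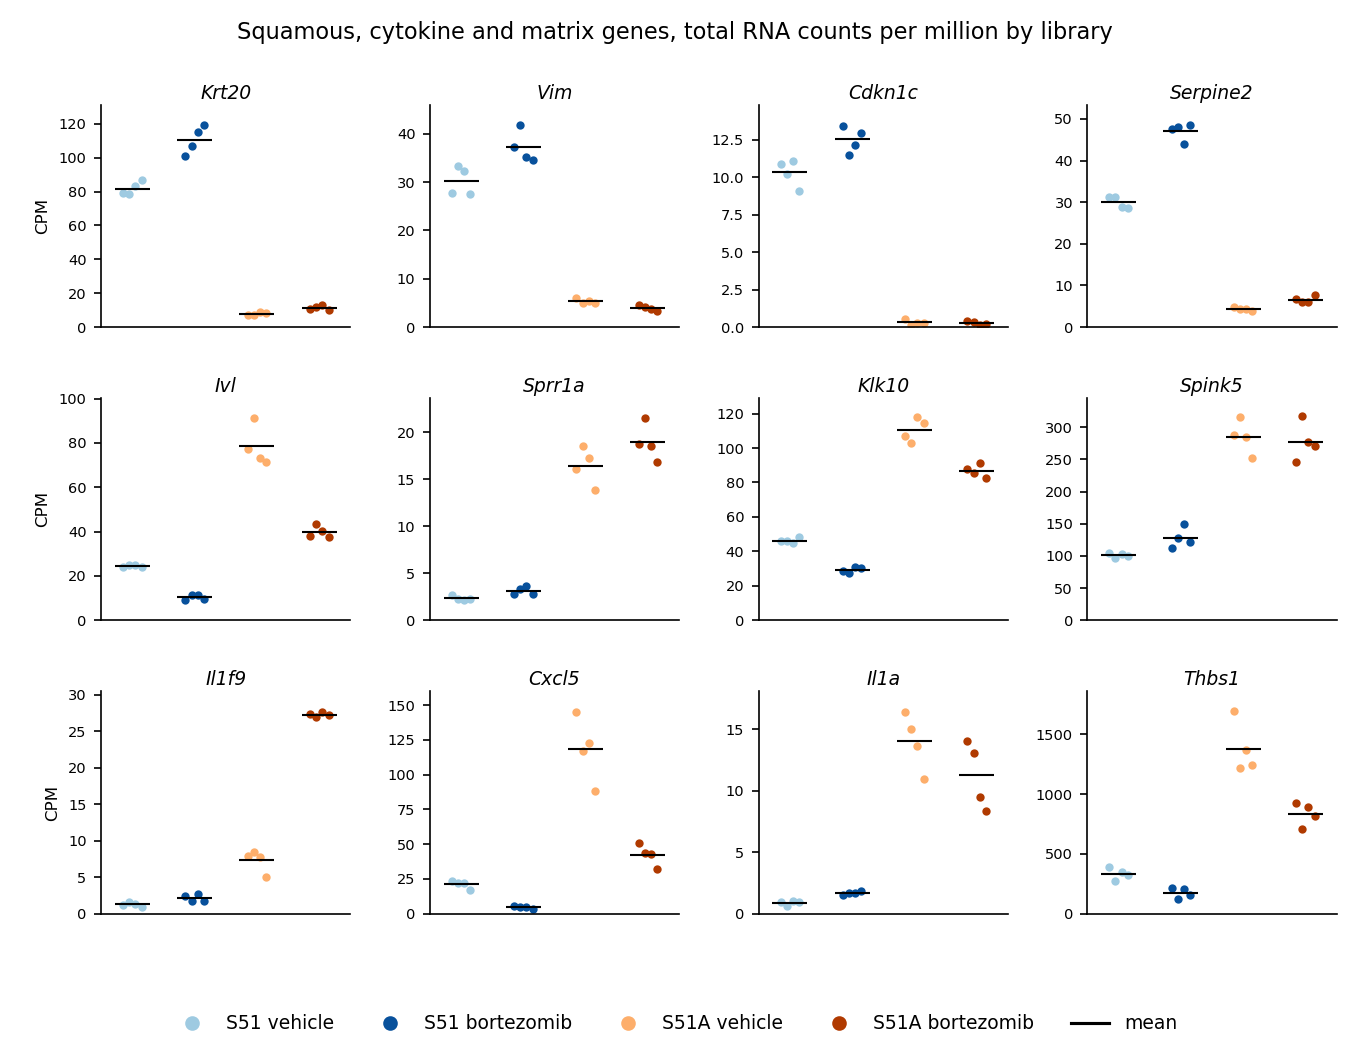
Total RNA level in CPM (y axes, linear from 0) of 12 genes that differed between the lines in each of the 16 libraries, with 4 points and a mean line per group. Krt20, Vim, Cdkn1c and Serpine2 are higher in S51 under both treatments, and the other 8 genes are lower in S51 under both, with Il1f9 at 26.9 to 27.7 CPM in S51A bortezomib and at most 8.49 CPM in the other groups.

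Called genes of the integrin and matrix lists were all lower in S51, where 5.51% of all genes were called lower and 2.73% higher. Of 11 tested integrin subunits 4 were called lower (36.4%), Itgb7, Itga2, Itgb2 and Itgb5, with a median of -0.51. Itgb7 (chr15:102215994-102233405) had 15.9, 15.2, 17.5 and 15.9 CPM in S51 and 119, 129, 127 and 120.1 CPM in S51A (-2.94 ± 0.054), without overlap. Itgb1, the main β subunit, measured 0.17 ± 0.035. Of 26 tested matrix and matrix protease genes 5 were called lower (19.2%), Mmp10, Ccn1, Mmp13, Thbs1 and Ccn2. The median was -0.30, and Sparc was at the high end (0.81 ± 0.032). Thbs1 (chr2:118111876-118127133), thrombospondin-1, had 216, 121, 203 and 156 CPM in S51 and 925, 708, 895 and 816 CPM in S51A (-2.27 ± 0.136). The matricellular Ccn2 (chr10:24595442-24598683), also known as CTGF, had 36.5, 33.4, 39.8 and 44.1 CPM in S51 and 127, 146, 145 and 191 CPM in S51A, and 104 to 119 CPM and 173 to 212 CPM under vehicle. Its difference of -1.99 ± 0.096 was wider than under vehicle by -1.25 ± 0.129. Ccn1 had 8.07, 9.59, 10.8 and 11.8 CPM in S51 and 43.4, 50.4, 49.9 and 61.8 CPM in S51A (-2.35 ± 0.126). Of 29 tested focal adhesion genes only Flnc, filamin C, was called, and it was lower (-1.99 ± 0.055). That share of 3.45% was below the 5.51% of all genes. The median was -0.01, with Tln2 at the high end (0.95 ± 0.117).

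Of 43 centrosome genes Ninl was called higher (1.13 ± 0.076), a share of 2.33% against 2.73% of all genes, with a median of 0.07 and Ccp110 at the low end (-0.45 ± 0.073). Of 10 tested tubulins Tubb2b (-2.21 ± 0.241) and Tuba1a were called lower (20%, against 5.51% of all genes), and Tuba1a had 11.6, 13.1, 13.3 and 12.2 CPM in S51 and 45.7, 43.5, 42.9 and 45.5 CPM in S51A (-1.82 ± 0.060). The abundant Tubb5 measured 0.18 ± 0.027.

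The widest differences downward were in BC061237, Prl8a9, Endou, Angptl2, Map3k8, Gm17026, 1700091H14Rik, Il1f9, Ly75, Asprv1, Bcl2l15 and Camk1d. BC061237 (chr14:44500122-44506345) had 1.51, 2.07, 1.51 and 1.59 CPM in S51 and 54.4, 57.4, 52.9 and 56.9 CPM in S51A (-5.05 ± 0.089), and Prl8a9, of the prolactin family, had 1.53 to 2.48 CPM and 51.9 to 53.9 CPM (-4.78 ± 0.104). BC061237, Gm17026 and 1700091H14Rik lie within a few megabases of each other on chromosome 14. The most abundant genes called lower were Sfn, Cd44, Thbs1, Igfbp3, Serpinb2 and Ptgs2. Sfn (chr4:133600556-133602168), which encodes 14-3-3σ of squamous cells, had 768, 765, 788 and 729.7 CPM in S51 and 1571, 1624, 1631 and 1432 CPM in S51A (-1.04 ± 0.047). Cd44 (chr2:102811141-102901669), a hyaluronan receptor, had 622, 576, 679 and 574 CPM in S51 and 1252, 1254, 1328 and 1212 CPM in S51A (-1.04 ± 0.049), and both stood apart between the lines at about 2-fold. Serpinb2, a plasminogen activator inhibitor, had 163 to 257 CPM and 637 to 788 CPM (-1.81 ± 0.104), and Igfbp3 differed by -1.08 ± 0.060.

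Signalling and cell cycle genes are given beside the shares of all genes called, 2.73% higher and 5.51% lower. Of 30 tested RAS-MAPK feedback and EGFR ligand genes, Spry1, an inhibitor of receptor signalling, was called higher (3.23 ± 0.239) and Spred3 (-1.56 ± 0.176) and Dusp4 (-1.16 ± 0.215) lower (6.67%). Of 21 TGF-β pathway genes Tgfbr3 (1.80 ± 0.253) and Bmp7 (1.29 ± 0.070) were called higher (9.52%) and Ltbp1 (-2.13 ± 0.077), Fst, Inhba and Pmepa1 lower (19.05%), with a median of 0.06. Of 18 Wnt pathway genes Fzd1 (2.22 ± 0.391) was called higher and Fzd5 (-1.37 ± 0.060) and Wnt7a (-1.04 ± 0.076) lower, and none of 14 Notch pathway genes was called. Of 18 cyclins and CDK inhibitors Cdkn1c was called higher and Ccng2 lower (-1.88 ± 0.152). Of 18 p53 targets, and of 12 BCL2 family genes, Bbc3, which encodes the pro-apoptotic PUMA, was called higher, with 4.84, 4.82, 4.67 and 4.81 CPM in S51 and 1.69, 2.36, 1.26 and 2.45 CPM in S51A (1.29 ± 0.208). Of 18 tested imprinted genes Cdkn1c was called higher and Zrsr1 (-1.64 ± 0.121) and Igf2r (-1.63 ± 0.093) lower.

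Metabolic genes outside amino acid metabolism were past the adjusted p more often downward than upward in S51. Of 22 cholesterol synthesis genes 19 were past the adjusted p downward (33.3% of all genes were), Fdft1 (-1.15 ± 0.108), Msmo1 (-1.07 ± 0.057) and Hmgcs1 (-1.04 ± 0.065) were called lower (13.6%, against 5.51% of all genes), and the median was -0.67 under bortezomib and -0.55 under vehicle. Msmo1 had 126, 136, 142 and 149 CPM in S51 and 261, 302, 289 and 304 CPM in S51A. The list of glycolysis and glucose uptake also held genes with other roles, Vegfa and Bnip3 among them. Of its 23 tested genes, Vegfa and Hk2 were called higher and Pfkfb4 (-1.89 ± 0.170) and Bnip3 (-1.17 ± 0.108) lower. These shares were 8.70% each, against 2.73% and 5.51% of all genes, and the median was -0.16. Vegfa (chr17:46016993-46032377), an angiogenic factor, had 73.3, 62.4, 66.2 and 65.6 CPM in S51 and 26.6, 26.2, 23.3 and 26.6 CPM in S51A (1.38 ± 0.058), against 42.6 to 49.3 CPM and 35.7 to 39.2 CPM under vehicle. The order of levels was S51 bortezomib, S51 vehicle, S51A vehicle and S51A bortezomib, and no neighbours in that order overlapped. Hk2, hexokinase 2, had 66.9 to 78.3 CPM in S51 and 32.7 to 35.3 CPM in S51A (1.09 ± 0.057). Of 18 tested glutathione S-transferase and aldehyde dehydrogenase genes Gsta1 (-3.03 ± 0.163), Gsta2, Gsta3 and Aldh3b1 were called lower (22.2%) and Aldh1a1 (1.05 ± 0.130) higher. Gsta genes are closely related, so that the share of reads each received is uncertain.

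None of 72 tested ribosomal protein genes was called between the lines under bortezomib, and their median was -0.03. Under vehicle the median was 0.12, and the line difference was lower under bortezomib for 46 of the 72 at an adjusted p below 0.05 of the interaction, where 9.75% of all genes were, by a median of -0.15. They ran from Rpl35 (-0.37) to Rpl4 (0.52) under bortezomib.

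Among the genes whose line difference itself depended on treatment, 34 were also called under bortezomib. The widest upward were Trpc1, Ccdc24, Megf11, Col4a4, Chac1 and Sgpp2, of which all but Chac1 had means of at most 1.07 CPM in every group. Trpc1, a cation channel, had 0.807, 1.30, 1.12 and 1.07 CPM in S51 and 0.248, 0.0471, 0.164 and 0.0481 CPM in S51A, against 0.201 to 0.321 CPM and 0.0461 to 0.351 CPM under vehicle (2.66 ± 0.675 for the interaction). At these levels a library held few reads. The widest downward were Aspa, 9930012K11Rik, Lurap1, Gm4890, Eng and Tie1, with means of at most 1.59 CPM in every group but for Aspa. Aspa, aspartoacylase, was higher in S51 under both treatments, with 2.67 to 3.79 CPM against 0 to 0.149 CPM under bortezomib and 6.10 to 8.33 CPM against at most 0.0502 CPM under vehicle, where S51A held 1 read and the ratio was 585 (95% counting interval 105 to 23145). A few more abundant genes of this kind were chosen after their values were seen. Gadd45a, a growth arrest gene, had 19.7, 23.5, 24.5 and 30.5 CPM in S51 and 4.71, 7.16, 6.28 and 8.03 CPM in S51A under bortezomib (1.90 ± 0.137), and 6.44 to 7.80 CPM and 4.70 to 7.48 CPM under vehicle (1.72 ± 0.210 for the interaction). The immediate early gene Ier2 had 16.7, 15.8, 13.9 and 16.1 CPM and 5.36, 5.32, 3.82 and 3.56 CPM (1.51 ± 0.141 for the interaction), and Snhg5, a host gene of small nucleolar RNAs, differed by 1.39 under bortezomib and 0.26 under vehicle.

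Called genes lay on all 19 autosomes, and the median difference of a chromosome was within 0.10 of 0 on the log2 scale except on chromosomes 2 and 9. Counts of called genes are read against 2.73% of all genes called higher and 5.51% called lower. Of 949 tested genes of chromosome 2, 68.1% were lower in S51, 87 were called lower and 20 higher, and the median was -0.18 under bortezomib and -0.16 under vehicle. Of 667 genes of chromosome 9, 34.6% were lower, 35 were called higher and 27 lower, and the median was 0.18 and 0.17. Between the S51 bortezomib libraries these medians varied by an SD of 0.00957 and 0.00697 (n = 4). On chromosome 13 the median was 0.10.

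In some stretches neighbouring genes differed in 1 direction. Beside the counts of called genes given here, 2.73% of all genes were called higher and 5.51% lower. Over 10897 runs of 25 neighbouring tested genes the median of a run was -0.01, with the 1st and 99th percentiles of runs at -0.42 and 0.57. The lowest run spanned chr3:90511034-93015686 from S100a1 to Crct1, in the epidermal differentiation complex, where 16 of 25 genes were called lower and the median was -1.45 under bortezomib and -1.11 under vehicle. Within it S100a4 (-0.08) and Sprr2a3 (0.06) lay near 0 beside S100a9 (-3.80) and Crct1 (-4.79). Of the called genes in this run, Ivl, Sprr1a, Sprr2d, Sprr2g and Sprr2h were already counted in the epidermal differentiation list. S100a8 and S100a9 were already counted in the cytokine list. Sprr2 genes are near-identical copies and their single values are uncertain. The highest run, on the same chromosome at chr3:32510264-37644599 from Zfp639 to Spry1, had 23 of 25 genes above 0, 6 called higher and a median of 0.81 under bortezomib and 0.74 under vehicle. It held, among others, the transcription factor Sox2, with 15.02, 11.8, 15.3 and 12.6 CPM in S51 and 3.57, 3.63, 4.53 and 5.29 CPM in S51A (1.68 ± 0.115), the RNA-binding protein Fxr1 (1.08 ± 0.043) and Actl6a, a chromatin remodeller subunit (0.91 ± 0.045), which were chosen after their values were seen. In the plot along chromosome 3 the raised stretch begins at the first tested genes of the chromosome and falls back to near 0 over the genes after Spry1, of which Sclt1 (1.46) and Slc7a11 (1.02) were called higher.

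**Figure D5:**
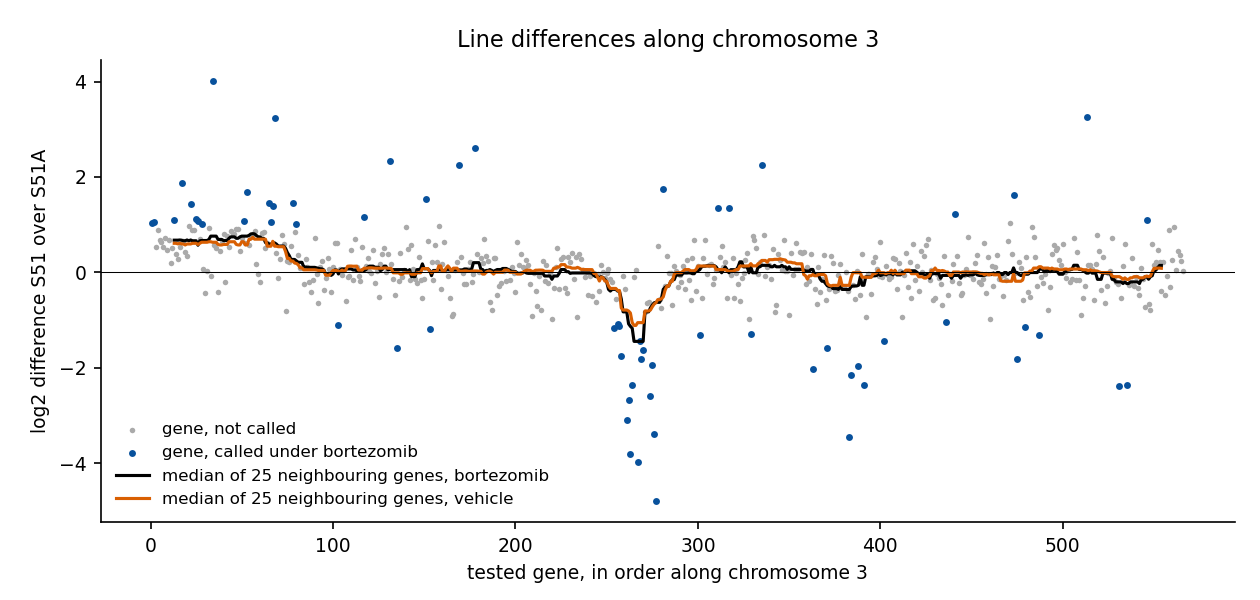
Log2 difference of S51 over S51A (y axis) for the tested genes of chromosome 3 in their order along it (x axis), with blue points for genes called under bortezomib and lines for the running median of 25 genes under bortezomib (black) and vehicle (orange). The median falls to -1.45 at the epidermal differentiation complex, reaches 0.81 near the start of the chromosome, and the lines for both treatments follow each other.

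The next highest runs, at chr13:21716412-23535909 and chr13:23542923-23764412, were those of the histone gene cluster, with medians of 0.76 and 0.75 under bortezomib against 0.21 and 0.19 under vehicle. All 53 tested replication-dependent histone genes of chromosomes 3 and 13, a group taken by symbol after these runs were seen and given without a test, had a median of 0.75 under bortezomib and 0.18 under vehicle, and 51 of them lay above 0, with 5 called higher and 1 lower. Of all genes, 2.73% were called higher and 5.51% lower. The summed level of the histone genes was 10216 to 11251 CPM in S51 bortezomib and 6177 to 7414 CPM in S51A bortezomib, against 7767 to 9071 CPM in S51 vehicle and 7243 to 7929 CPM in S51A vehicle. All S51 bortezomib libraries were above the other 3 groups, and the S51A ranges overlapped between treatments. H1f5, a linker histone, had 366, 354, 396 and 396 CPM in S51 and 241, 213, 227 and 207 CPM in S51A (0.77 ± 0.046). H2ax, a variant histone of the DNA damage response on chromosome 9 and 1 of the 6 most abundant genes called higher, had 412, 355, 399 and 389.8 CPM in S51 and 225, 198, 192 and 141 CPM in S51A (1.04 ± 0.085), and fell below 2-fold with library sizes alone (0.99) and without S51A bortezomib replicate 4 (0.92). Histone mRNAs mostly lack a poly(A) tail and are kept by the rRNA depletion used here, and the copies share sequence, so that single values are uncertain.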

How the data were processed

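The deposited total RNA table holds raw counts per gene, which the authors made from rRNA-depleted, single-end libraries. Per the file headers, repeat runs were merged, rRNA reads removed, duplicates marked, repeats masked and uniquely mapped reads kept. The submitters' processing notes name Bowtie2, featureCounts, DESeq2 and mm10, and the paper names plastid for counting. Strand use in counting is not given in the sources used here. All 16 columns of the table were used, each named by its sample's labels after the exchange recorded in the series note. The ribosome profiling table was not used.

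The 16 libraries were fitted with edgeR 4.0.16 in R 4.3.3 (limma 3.58.1), with TMM factors, filterByExpr by group (minimum count 10, minimum total 15) and 1 coefficient per group, and tested by glmQLFTest for the line difference under bortezomib, under vehicle and for their difference. Adjusted p-values are Benjamini-Hochberg over 11708 genes. Calls needed both a fold above 2 and an adjusted p under 0.05. The SE is the size of the log2 difference divided by the root of the F statistic. Differences of a gene absent from a line are given as bounds against a floor of 3 counts over the group, and intervals of ratios with few counts are exact at 95%. Of 24593 gene IDs 24569 matched RefSeq (GRCm38.p6), which gave chromosomes, positions and promoters. The 24 pairs of replicates differed by more than sampling noise, with a chi-square per gene of at least 2.78, and each was counted as 1 library. DESeq2 1.42.0 and other settings were tried as alternatives.

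Genes named are Eif2s1, the 12 highest and 12 lowest called genes with libraries apart and a mean of at least 5 CPM in the higher line, the 6 most abundant called in each direction, the 6 highest and 6 lowest of those called both under bortezomib and in the interaction, and, of each list, the called members, both ends of the range and members whose role defines the list. The genes compared and the lists were chosen with earlier results of these data known. Some list members and promoter windows are not reported here.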

Additional observations from a re-analysis of the deposited data

Results flagged for a closer look

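Within the 4 libraries of a line under bortezomib, 14 values of 366 groups of libraries stood apart from the other 3 by more than the 95% critical value of Dixon's ratio, which is the gap to the nearest library divided by the range of the group. Chance flags about 1 in 20 groups. Krt15 stood apart in both lines, where S51 bortezomib 1 had 19.7 CPM against 35.3 CPM for the nearest library (ratio 0.906) and S51A bortezomib 2 had 15.9 CPM against 7.26 CPM (0.868). Herpud1 in S51 bortezomib 4 was at 166 CPM against 126 CPM (0.985), Bnip3 in S51A bortezomib 1 at 12.9 CPM against 17.1 CPM (0.955) and Flnc in the same library at 239.7 CPM against 259 CPM (0.963). Mitf in S51A bortezomib 4 was at 0.625 CPM against 0.248 CPM (0.863), and Gm4890 in S51 bortezomib 4 at 0.665 CPM against 0.252 CPM (0.877). The others lay within 1.5 times of the nearest library, with ratios of 0.838 for Rgma and 0.850 for Asns in S51 bortezomib 1, 0.867 for Mecom and 0.860 for BC061237 in S51 bortezomib 2, 0.889 for Aldh18a1 in S51 bortezomib 4, 0.845 for Endou in S51A bortezomib 2 and 0.865 for Vegfa in S51A bortezomib 3.

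The line difference itself was tested between bortezomib and vehicle. Of the genes named by rank, by call or as an end of a range, 20 were called in that test, with these log2 differences of differences. Genes named for their role or after their values were seen, such as Atf3, Gadd45a and Ier2, are not in this list. Larger, or less negative, under bortezomib were Trpc1 (2.66), Ccdc24 (2.28), Megf11 (2.27), Col4a4 (1.97), Chac1 (1.77), Sgpp2 (1.73), Gsta2 (1.69), Il1a (1.20), Trib3 (1.14), Vegfa (1.09), Ddit3 (1.07) and Nfkbia (1.07). Smaller, or more negative, were Aspa (-3.46), 9930012K11Rik (-2.66), Lurap1 (-1.71), Gm4890 (-1.496), Eng (-1.45), Tie1 (-1.41), Ccn2 (-1.25) and Il1f9 (-1.17).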

How the results depend on the processing

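The counts of called genes kept within 1.5 times of those reported under bortezomib with RLE factors (313 higher and 618 lower), library sizes alone (272 and 696), no filter beyond 1 count (433 and 798), only the 8 libraries compared (265 and 566), only autosomal genes (310 and 627) and DESeq2 (314 and 619). They moved further with at least 10 counts in every bortezomib library, a filter that leaves fewer genes (182 and 382 under bortezomib, 153 and 400 under vehicle, 22 and 6 in the interaction), with a fold above 1.5 (936 and 1331, 716 and 1273, 153 and 88) and with glmTreat, which tests against a fold of 2 (146 and 293, 129 and 334). In the interaction edgeR's glmTreat called 0 higher and 0 lower, with 24 and 8 at an unadjusted p below 0.05, where edgeR's quasi-likelihood test called 36 and 19 and DESeq2 24 and 10. Without a filter 30 were lower in the interaction. Library sizes alone moved the share of calls that were higher from 33.1% to 28.1%, and a fold above 1.5 moved it to 41.3%. The medians of chromosomes 2, 9 and 13 were -0.23, 0.13 and 0.041 with library sizes alone, which shift the median of all genes to -0.06, and chromosome 9 was at 0.19 with RLE factors. Leaving out 1 library gave 307 to 335 higher and 623 to 667 lower under bortezomib, 274 to 286 and 613 to 658 under vehicle, and 30 to 47 and 11 to 23 in the interaction, where the 11 came without S51A vehicle replicate 1. Of 183 named genes none changed direction, and of 148 called 101 were called under each of 25 alternatives. Under glmTreat 47 were not, under DESeq2 and RLE factors Ptgs2 and Icam1 were not, under library sizes alone Slc7a11 and H2ax, and without a filter Icam1. DESeq2 shared 925 of its 933 calls under bortezomib with those reported. The cause of these changes was not tested beyond the construction named.

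Replicates carry the same numbers in both lines, but nothing says that a number marks a shared culture or day. Over genes, deviations of libraries with the same number correlated at 0.0733 to 0.145 and those with different numbers at -0.105 to 0.0624, so that each library correlated best with its own number, a hint from the data and not from the design. With the replicate number as a block 309 genes were higher and 631 lower under bortezomib, of which 934 in all were among those reported, and 44 and 23 were called in the interaction. No named gene lost its call under the block. A count of 3 reads in a library, 0.126 to 0.164 CPM, limits what can be seen of genes at the low end, and the called genes are mostly there.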

Other observations

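A few further genes whose line difference itself differed between the treatments were chosen after their values were seen. Cxcl1, a neutrophil chemokine, was at 8.02 to 12.9 CPM in S51 bortezomib and 8.41 to 13.3 CPM in S51A bortezomib, with a line difference of -0.10 ± 0.185 (log2, SE), against -1.39 ± 0.147 under vehicle, where S51 had 14.3 to 22.9 CPM and S51A 38.8 to 60.1 CPM. Zfp750, a transcription factor of epidermal differentiation, had 1.30 to 2.51 CPM in S51 vehicle and 2.85 to 4.11 CPM in S51A vehicle, and 11.1 to 14.9 CPM and 10.7 to 12.2 CPM under bortezomib, so that its lines stood apart under vehicle and overlapped with the drug. Ovol1, another epidermal transcription factor, differed by -1.52 ± 0.138 under vehicle and by -0.09 ± 0.169 under bortezomib. Gadd45g went from 0.70 ± 0.145 under vehicle to -0.46 ± 0.136 under bortezomib, the reverse of Gadd45a, which differed by 0.18 ± 0.156 and 1.90 ± 0.137. The interaction passed an adjusted p below 0.05 in edgeR for each of these 5 genes. Arid5a, an RNA-binding regulator of inflammatory mRNAs, had 15.6, 12.7, 9.38 and 13.05 CPM in S51 bortezomib and 3.92, 2.36, 2.68 and 3.08 CPM in S51A bortezomib, without overlap, and a difference of 0.74 ± 0.137 under vehicle.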
